A study of Mus musculus with 2 samples.

Results

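The genes of the Wnt signalling pathway were read in glomeruli of mice lacking GC-A and p38 in podocytes and in glomeruli of floxed control mice. They comprised every probe set with exactly 1 platform gene symbol among the Wnt ligands, the Frizzled receptors (Fzd), the co-receptors Lrp5 and Lrp6, the R-spondins (Rspo), the Dickkopf (Dkk), secreted Frizzled-related (Sfrp) and Wif1 antagonists, the Kremen receptors, the Dishevelled (Dvl), Axin and Naked cuticle (Nkd) proteins, β-catenin (Ctnnb1), the TCF/LEF transcription factors and the acyltransferase Porcn. This gave 117 probe sets of 58 genes, out of 34945 probe sets of 18193 genes with 1 symbol. One of the 58, Fzd10os, is a transcript from the strand opposite Fzd10 whose name begins like that of a receptor. It is kept in the counts and is no receptor.

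The double knockout carried GC-A fl/fl, p38 fl/fl and Nephrin-Cre (Cre/+), and the control carried GC-A fl/fl, p38 fl/fl and Nephrin-Cre (+/+), read here as no Cre allele. All animals were C57BL/6J males, studied at 2 months after 3 weeks of a 6% NaCl diet with aldosterone (0.2 µg/kg/min) from a minipump, so that both groups had floxed alleles and both were salt and hormone loaded. GC-A is the natriuretic peptide receptor guanylyl cyclase A, p38 is a stress-activated protein kinase, and the nephrin promoter restricts Cre to podocytes, so that other glomerular cells keep both genes. Glomeruli were isolated by sieving, and each genotype had 1 array; the labels do not give the number of mice behind an array, and an unloaded or wild-type array is not analysed here.

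Wnt proteins are acylated, secreted ligands that bind a Frizzled receptor, with Lrp5 or Lrp6 as co-receptor in the branch that stabilises β-catenin. In that branch β-catenin escapes a destruction complex built on Axin, enters the nucleus and acts with TCF/LEF factors, and some of the induced genes, such as Axin2 and Nkd1, encode inhibitors of the pathway itself. Other branches act through planar cell polarity and calcium. In the kidney, Wnt9b and Wnt4 drive nephron formation during development, and active β-catenin in podocytes has been linked to podocyte injury and loss of protein retention.

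With 1 array per genotype no difference has a replicate check, no p-value can be had, and a statement that a gene was higher or lower holds for these arrays only. Values are microarray signals in arbitrary units. They were scaled to one mean per array, so a difference is relative to the rest of that sample. A signal below 52.65, the floor, was taken as not measured, and folds against such a signal are lower bounds computed against the floor. A gene was counted as called where the arrays differed at least 2-fold, which is 1 on the log2 scale. The targeted receptor gene Npr1 read 102 in double knockout and 167 in control glomeruli, and Mapk14, which encodes p38α, read 2607 in double knockout and 2628 in control. The labels do not name the p38 gene that was floxed, so whether Mapk14 was the one is not known here. Whether the probe sets lie inside deleted exons is also not known from the sources used here, and one outside them checks nothing. Podocyte markers were measured for 21 of 25 listed genes, the rest not being found among the probe sets with 1 symbol. Their summed signals were 142470 in double knockout and 112413 in control glomeruli. The median log2 difference was 0.51, with 18 above 0 and 3 below. Nphs1, the nephrin gene itself, named after its values were seen, read 8373 in double knockout and 5320 in control. Proximal tubule markers were also measured on both arrays, for 19 of 20 listed genes. Their summed signals were 168983 in double knockout and 265650 in control, so both arrays carried tubule as well as glomerular transcripts. The median log2 difference of these tubule markers was -0.81, with 0 above 0 and 19 below.

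Of the 58 genes, 44 were measured: 35 on both arrays, 6 in the double knockout alone and 3 in the control alone. Of these 44, 5 (11.4%) reached 2-fold or more on the higher side, against 3.53% of all 13290 measured genes. They were Nkd1, Wnt4, Rspo1, Axin2 and Sfrp2. None of the 44 was at least 2-fold lower, against 2.87% of all measured genes. By sign, 32 of 44 (72.7%) were above 0 and 12 below, against 56.1% above 0 among all measured genes. The median log2 difference was 0.28 for the Wnt pathway genes, with quartiles at 0.00 and 0.52, and 0.07 for all measured genes, with quartiles at -0.24 and 0.37. In size, 34 of the 44 genes (77.3%) differed by less than 1.5-fold, near the 76.3% of all measured genes, 3 were 1.5-fold to 2-fold higher and 2 were 1.5-fold to 2-fold lower. Of those 34, 8 had 1 array below the floor, so their folds are bounds. Among the 35 genes above the floor on both arrays 26 were above 0, against 56.1% of the 12284 genes so measured. Their median was 0.41, against 0.07 over all genes so measured. Of the 35, 5 were past 2-fold higher and none past 2-fold lower. The 2-fold shares over all genes so measured were not computed, so these 2 counts have no share beside them. In bulk tissue, fewer cells of a type and less RNA per cell cannot be told apart.

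**Figure D1:**
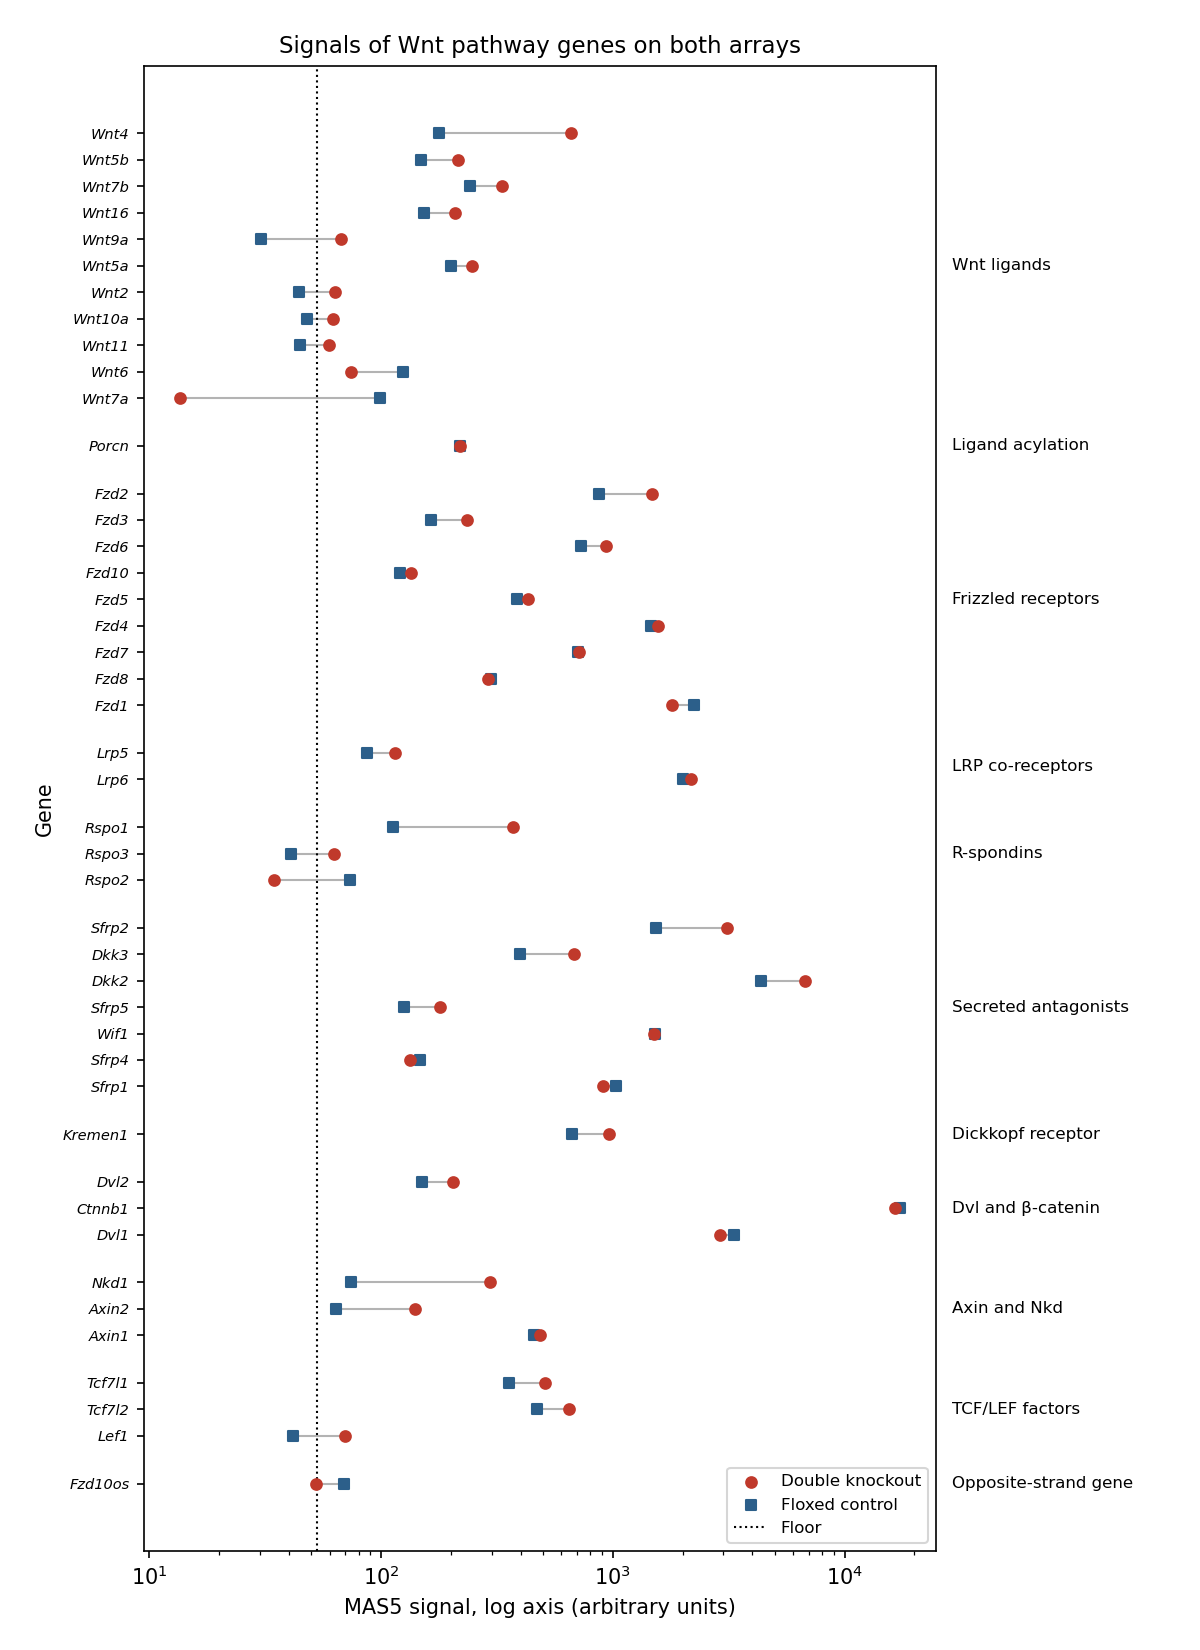
Signals of the 44 measured Wnt pathway genes in the double knockout (red circles) and the floxed control (blue squares) on a log axis of arbitrary units, grouped by role, with the floor of 52.65 as a dotted line. The widest gaps with both signals above the floor belong to Nkd1, Wnt4 and Rspo1, while Ctnnb1, Porcn, Wif1 and Fzd7 have nearly coinciding points.

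Glomerular cell markers as a whole were higher in the double knockout. Over 70 measured markers of podocytes, glomerular endothelium, mesangium and parietal epithelium, Dkk3 among them, 62 were above 0 and the median log2 difference was 0.62 (0.59 without Dkk3). Set against that median, 8 of the 44 Wnt pathway genes lay above it and 36 below. Nkd1, Wnt4 and Rspo1 remained at least 2-fold higher, at 1.37, 1.28 and 1.09 on the log2 scale, Axin2 and Sfrp2 became 0.51 and 0.40, and 4 genes (Wnt7a, Wnt6, Rspo2 and Fzd10os) became at least 2-fold lower. The split of called genes, 5 higher and 0 lower as deposited, was then 3 higher (6.82%) and 4 lower (9.09%), against 0.519% higher and 17.6% lower over all measured genes. The same amount is taken from every gene, so the median of the Wnt pathway genes became -0.33 and that of all measured genes -0.55. Whether the share of glomerular cells in the preparations set these differences was not tested.

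Among the ligands, Wnt4 stood apart. Wnt4, which signals in nephron formation, gave 659 in double knockout and 177 in control glomeruli, 3.72-fold higher. Its second probe set read 298 in double knockout and 69.0 in control, a log2 difference of 2.11 beside 1.89 for the first. The 500 genes nearest to Wnt4 in mean signal had log2 differences from -0.92 to 1.08 over their central 95%, and Wnt4 ranked 41 from the top of all 13290 measured genes. Both Wnt4 probe sets therefore gave the same direction and a similar size, and the value stayed above 2-fold in each of 11 alternative settings (log2 differences from 1.28 to 2.00). Of these settings, a lower floor or none could not change the value, as both signals were above the floor.

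Of the 19 Wnt ligand genes, 11 were measured, with a median log2 difference of 0.30, 9 above 0 and 2 below. Wnt5a and Wnt5b, ligands best known for β-catenin-independent signalling, read 248 and 214 in the double knockout, and 201 and 149 in the control. Wnt7b, a ligand of the collecting duct epithelium in the developing medulla, read 333 in double knockout and 242 in control glomeruli, and its dimmer probe set read 106 in double knockout and 46.6 in control, at least 2.01-fold higher. Wnt16 read 208 in double knockout and 153 in control glomeruli. These 4 ligands were all higher by less than 1.5-fold in the probe set used for the gene. The second measured Wnt5a probe set read 130 in double knockout and 81.9 in control glomeruli, 1.59-fold higher. A further 4 ligands were above the floor in the double knockout alone, where Wnt9a read 66.9, Wnt2 63.3, Wnt10a 62.0 and Wnt11 59.3, so their folds are bounds of at least 1.27, 1.20, 1.18 and 1.13. They stood only just above the floor and add little to the direction.

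Wnt6 and Wnt7a were the ligands on the lower side. Wnt6 read 74.3 in double knockout and 124 in control glomeruli, 1.68-fold lower. Wnt7a read 13.6 in double knockout and 98.5 in control glomeruli, at least 1.87-fold lower against the floor. The other Wnt7a probe sets were below the floor on both arrays and give no direction, so Wnt7a rested on 1 probe set. Wnt6 lies next to Wnt10a on chromosome 1 in the RefSeq annotation, and these neighbours were at -0.75 and 0.24 (a bound) on the log2 scale. Wnt10a was above the floor in the double knockout alone, which set its sign, so the pair gives no comparison of directions. It was the 1 pair of neighbouring Wnt genes, of 4 such pairs, in which both genes were measured. The 8 ligand genes below the floor on both arrays in the probe set used were Wnt1, Wnt2b, Wnt3, Wnt3a, Wnt8a, Wnt8b, Wnt9b and Wnt10b. Porcn, which acylates the ligands before secretion, read 220 on each array.

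The R-spondins are secreted proteins that bind Lgr4, Lgr5 and Lgr6 and spare Frizzled receptors from the ubiquitin ligases Rnf43 and Znrf3. Of 4 R-spondin genes, 3 were measured. Rspo1 read 370 in double knockout and 113 in control glomeruli, 3.27-fold higher, from its only probe set. The central 95% of genes of like signal ran from -1.01 to 1.27 on the log2 scale, against 1.71 for Rspo1, which ranked 58 from the top. Rspo3 read 62.5 in double knockout and 41.0 in control glomeruli, and Rspo2 34.5 in double knockout and 73.3 in control. Each had 1 array below the floor, so its direction was set by which array passed and is no result. The other probe set of each was below the floor on both arrays. Rspo4 was below the floor on both arrays. Rspo1 was thus the one R-spondin measured on both arrays.

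The Frizzled receptors, the seven-pass membrane proteins that bind Wnt, differed little. Of 10 Fzd genes, 9 were measured, with a median log2 difference of 0.15, 7 above 0 and 2 below, and none at least 2-fold different in the probe set used. Fzd2 was the furthest from even, with 1471 in double knockout and 869 in control glomeruli (1.69-fold higher). Its other probe sets gave 1417 in double knockout and 689 in control for one (log2 difference 1.04) and 1224 in double knockout and 665 in control for the other (0.88), so Fzd2 passed 2-fold in 1 of 3 probe sets. Fzd3 read 236 in double knockout and 164 in control glomeruli, and Fzd6 935 in double knockout and 731 in control. Fzd1 was the lowest receptor, at 1806 in double knockout and 2234 in control glomeruli, with both of its probe sets below 0 (-0.31 and -0.53). Fzd4, which also serves as the norrin receptor of endothelial cells, read 1573 in double knockout and 1457 in control, while endothelial markers had a median log2 difference of 0.68 with 20 of 20 above 0 (summed signals 80590 in double knockout and 49361 in control). Fzd5, Fzd7, Fzd8 and Fzd10 differed by less than 1.13-fold in the probe set used, and Fzd9 was not measured. The second probe set of Fzd8 read 94.7 in double knockout and 65.6 in control (1.44-fold higher), the opposite direction to the one used, and that of Fzd5 was at least 1.25-fold higher. The co-receptor Lrp6 read 2168 in double knockout and 1999 in control glomeruli, and Lrp5 115 in double knockout and 86.6 in control.

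The secreted antagonists divided into a higher and an even set. Of 9 genes, 7 were measured, with a median log2 difference of 0.52, 4 above 0 and 3 below. Sfrp2, a decoy that binds Wnt through a Frizzled-like domain, read 3109 in double knockout and 1543 in control glomeruli, 2.02-fold higher. The central 95% of genes of like signal ran from -1.17 to 0.88 on the log2 scale, and 1.01 for Sfrp2 lay above that range. It stood at the 2-fold threshold, and fell short of it with a pseudocount (0.996 on the log2 scale), after median or 75th percentile centring (0.92 in each) and after recentring on glomerular markers (0.40). Dkk2, which binds Lrp5 and Lrp6, read 6760 in double knockout and 4365 in control glomeruli (1.55-fold higher), and Dkk3, a divergent member of the family, 683 in double knockout and 399 in control (1.71-fold higher), with 0.64 in its second probe set. Sfrp5 read 179 in double knockout and 125 in control glomeruli.

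By contrast, Sfrp1 read 910 in double knockout and 1034 in control glomeruli, and each of its 5 probe sets was below 0, from -0.46 to -0.06 on the log2 scale. Sfrp4 read 134 in double knockout and 147 in control glomeruli, and Wif1, another Wnt-binding decoy, 1504 in double knockout and 1521 in control. The classical LRP antagonist Dkk1 was below the floor on both arrays, at 9.98 in double knockout and 37.1 in control glomeruli, as was Dkk4. Kremen1, a receptor through which Dickkopf proteins remove LRP co-receptors from the surface, read 967 in double knockout and 663 in control glomeruli (0.54 on the log2 scale). Its dimmer probe sets read 0.03 and 0.10.

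The feedback inhibitors gave 2 of the 5 genes past 2-fold. Nkd1, which binds Dishevelled and is induced by β-catenin in several tissues, read 294 in double knockout and 74.1 in control glomeruli, 3.97-fold higher. A second Nkd1 probe set read 198 in double knockout and 58.8 in control (1.75 on the log2 scale), while the remaining ones read 80.0 in double knockout and 76.1 in control (0.07) and 57.4 in double knockout and 59.0 in control (-0.04). The Nkd1 call thus depended on the probe set: it was 0.94 as the mean over its 4 probe sets and 0.07 in the one of median difference. It was also 0.70 with the floor at the 60th percentile. Axin2, a scaffold of the destruction complex and a widely used reporter of β-catenin activity, read 140 in double knockout and 64.0 in control glomeruli, 2.19-fold higher. The control signal was close to the floor, the central 95% of genes of like signal ran from -1.13 to 1.52, and 1.13 for Axin2 lay inside that range. Its other probe set was below the floor on both arrays, at 1.01 in double knockout and 4.68 in control. Axin2 missed 2-fold with a pseudocount (0.84) and after recentring on glomerular markers (0.51), and was not measured with the floor at the 60th percentile. Axin1, the constitutive scaffold, read 486 in double knockout and 457 in control glomeruli. Nkd2 was measured by 1 of 4 probe sets, which read 54.2 in double knockout and 10.6 in control, and not by the one used for the gene.

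Of the 3 measured transducers 1 was above 0, as were all 3 nuclear factors, of which Lef1 was above the floor in the double knockout alone. Ctnnb1 read 16549 in double knockout and 17344 in control glomeruli, with its 3 probe sets between -0.07 and 0.07 on the log2 scale. The transcript does not report the stabilised protein through which the pathway acts. Dvl1 read 2900 in double knockout and 3333 in control glomeruli, and Dvl2 205 in double knockout and 149 in control, with -0.05 in the second Dvl2 probe set; Dvl3 was not measured. Tcf7l1, which mainly represses, read 511 in double knockout and 355 in control glomeruli, with 0.53 and 0.54 in its 2 probe sets. Tcf7l2 read 649 in double knockout and 472 in control, with its other probe sets between 0.05 and 0.19. Lef1 read 69.6 in double knockout and 41.9, below the floor, in control glomeruli, at least 1.32-fold higher. Its sign was set by which array passed the floor, and its other probe set was below the floor on both arrays. None of the transducers or nuclear factors passed 2-fold.

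**Figure D2:**
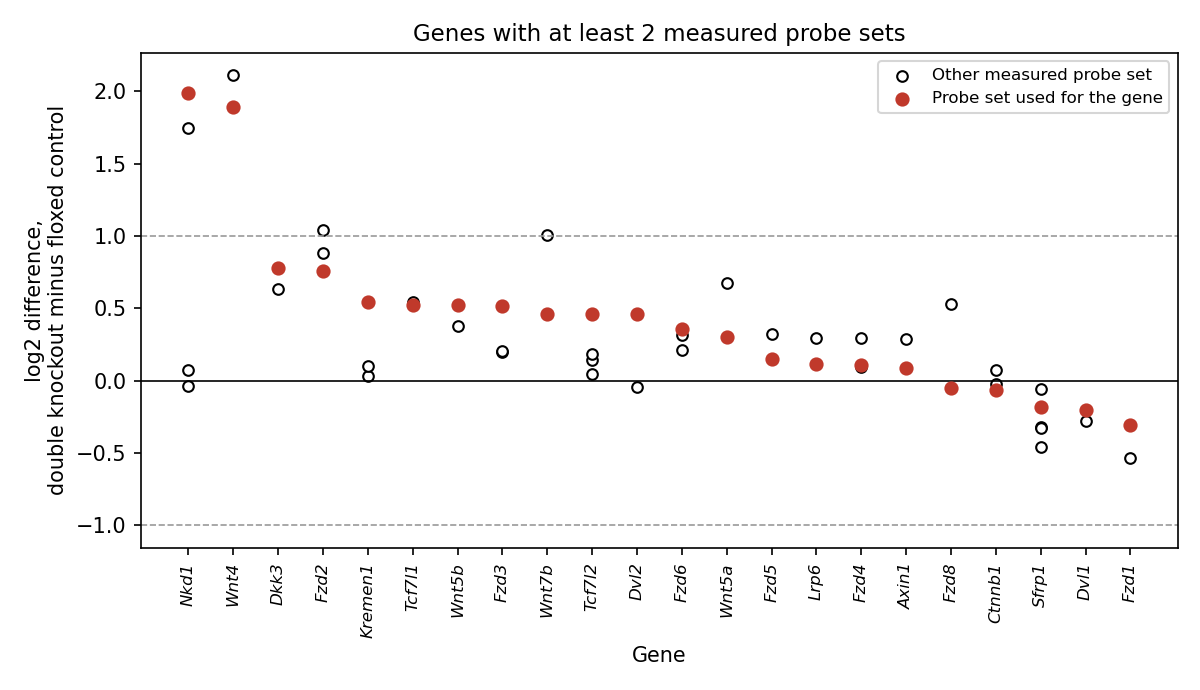
The log2 differences (double knockout minus floxed control) of the 22 Wnt pathway genes with at least 2 measured probe sets, with the probe set used for the gene in red, the others as open circles and dashed lines at 2-fold. In 18 of the 22 genes all probe sets had 1 direction; Nkd1, Dvl2, Fzd8 and Ctnnb1 had both.

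Counts by probe set include the probe sets used for the genes, so they are no separate check of the counts by gene. Of the 5 genes past 2-fold, 2 had at least 2 measured probe sets. Of 117 probe sets 80 were measured, and 9 of these (11.2%) were at least 2-fold higher, against 3.27% of all 24455 measured probe sets with 1 symbol. They came from 7 genes, with Fzd2 and Wnt7b added to the 5 above. None of the 80 was at least 2-fold lower, against 2.39% of all. The 14 genes not measured in the probe set used had signals from 1.98 to 47.8 in the double knockout and from 1.13 to 45.8 in the control.

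**Figure D3:**
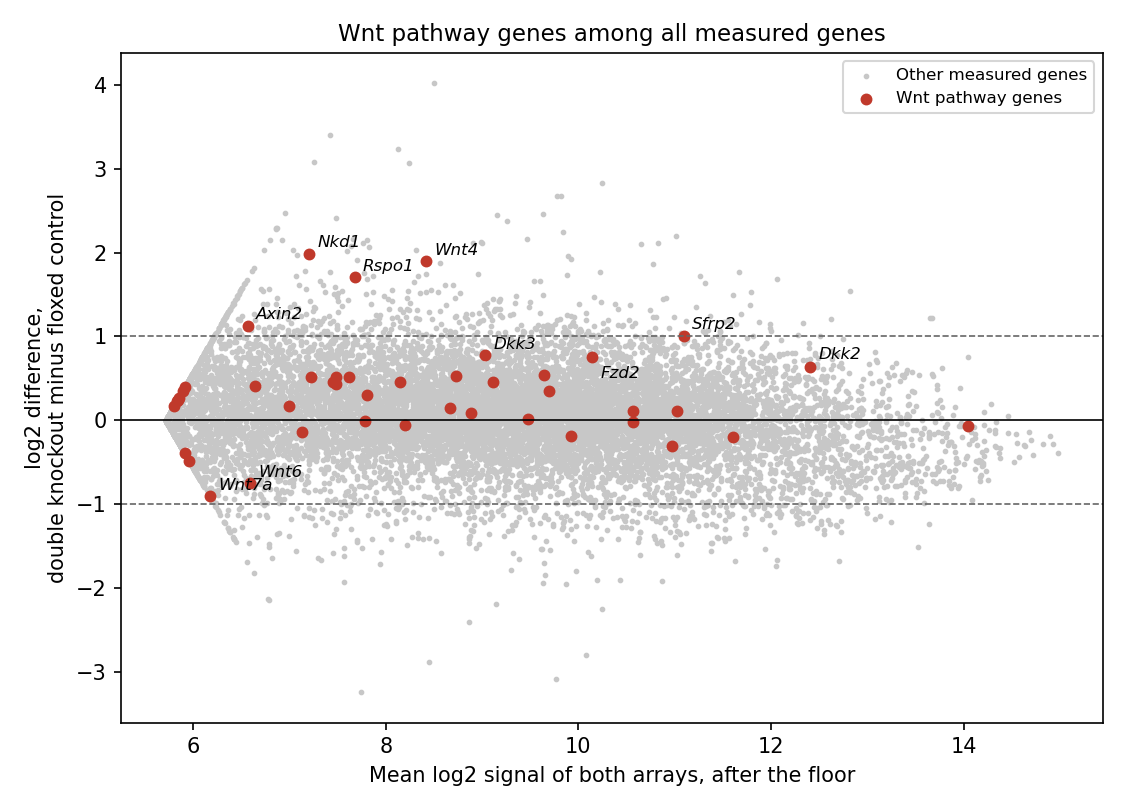
The log2 difference (double knockout minus floxed control) against the mean log2 signal of both arrays for the 13290 measured genes, with the 44 Wnt pathway genes in red and dashed lines at 2-fold. Nkd1, Wnt4 and Rspo1 lie in the upper edge of the cloud, Axin2 and Sfrp2 at or just past the 2-fold line and Wnt7a, a bound, in the lower part of the cloud.

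The 5 genes past 2-fold had 1 promoter window each in RefSeq, of 250 bases before and 50 after the start site (GRCm38.p6). They are shown because these genes passed the 2-fold rule, and the 250 bases before the start are printed, 5′ to 3′ on the gene's strand.

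Wnt4 (chr4:137277385-137277634, plus strand): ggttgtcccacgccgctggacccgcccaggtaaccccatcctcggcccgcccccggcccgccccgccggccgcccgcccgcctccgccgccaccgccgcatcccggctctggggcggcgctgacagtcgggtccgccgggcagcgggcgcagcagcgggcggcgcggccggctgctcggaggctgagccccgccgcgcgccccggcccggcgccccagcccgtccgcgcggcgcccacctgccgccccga
Rspo1 (chr4:124986180-124986429, plus strand): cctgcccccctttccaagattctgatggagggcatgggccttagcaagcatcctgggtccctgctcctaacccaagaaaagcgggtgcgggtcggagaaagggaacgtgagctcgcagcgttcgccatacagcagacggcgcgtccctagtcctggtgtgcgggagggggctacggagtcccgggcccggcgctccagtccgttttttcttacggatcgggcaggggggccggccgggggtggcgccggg
Sfrp2 (chr3:83766071-83766320, plus strand): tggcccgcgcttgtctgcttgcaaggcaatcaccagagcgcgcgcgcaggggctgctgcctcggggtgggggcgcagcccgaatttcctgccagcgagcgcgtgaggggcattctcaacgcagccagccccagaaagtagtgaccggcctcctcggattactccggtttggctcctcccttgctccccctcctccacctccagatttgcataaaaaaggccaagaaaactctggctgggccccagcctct
Nkd1 (chr8:88527383-88527632, plus strand): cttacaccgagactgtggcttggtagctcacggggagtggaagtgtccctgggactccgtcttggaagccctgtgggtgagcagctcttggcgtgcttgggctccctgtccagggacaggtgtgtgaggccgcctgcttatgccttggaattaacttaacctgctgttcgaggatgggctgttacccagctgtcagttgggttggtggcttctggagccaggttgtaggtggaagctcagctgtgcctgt
Axin2 (chr11:108920099-108920348, plus strand): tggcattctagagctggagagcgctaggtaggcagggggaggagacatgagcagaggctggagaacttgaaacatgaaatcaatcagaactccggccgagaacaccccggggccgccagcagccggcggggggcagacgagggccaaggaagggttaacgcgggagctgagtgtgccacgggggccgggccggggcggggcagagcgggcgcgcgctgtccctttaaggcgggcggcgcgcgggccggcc

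The windows were searched on both strands for the TCF/LEF core words CTTTGAT and CTTTGTT, and CTTTGAA and CTTTGTA, which overlap one another in the shared CTTTG. None of the 5 windows held any of them, so no base is in capitals, and this says only that these letters are not in these windows. Among all 32851 RefSeq windows of that length 16.9% held at least 1 of the words, and among the 46 windows matched to 38 of the 58 Wnt pathway genes 7 did (15.2%), each from a different gene. The 5 windows were rich in G and C, at 84.3% for Wnt4, 70.0% for Axin2, 69.0% for Rspo1, 66.0% for Sfrp2 and 58.3% for Nkd1, against a median of 52.7% over all windows. Windows of Wnt pathway genes that were not called ran from 42% (1 of Tcf7l2) to 86.3% (Wnt3a), so the G and C share did not set the 5 apart.

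Other genes of the pathway, outside the families above, are given by list. Without the reported target genes, 78 were measured, with 3 (3.85%) past 2-fold on the higher side, near the 3.53% of all measured genes, and none on the lower, against 2.87%. Their median log2 difference was 0.28, against 0.07 for all measured genes. The 3 were Apcdd1, a membrane inhibitor of Wnt (250 in double knockout and 107 in control glomeruli, 2.34-fold), Reck, a co-factor of Wnt7 reception (1475 in double knockout and 704 in control, 2.10-fold), and Prickle2 of the planar polarity branch (2020 in double knockout and 916 in control, 2.21-fold). Notum, on the list of other Wnt receptors and modulators, was 2.36-fold lower and was left out of the 78 as a reported target. That list had 14 measured genes and a median of 0.44, with 11 above 0 and 1 past 2-fold on each side. With the reported targets 110 genes were measured, with 11 (10%) higher and 1 (0.909%) lower, against 3.53% and 2.87%. Genes of the β-catenin destruction complex had a median of 0.20, with 15 of 19 above 0 and none past 2-fold, and Gsk3b, its kinase, read 2062 in double knockout and 1545 in control. Nuclear cofactors had a median of 0.21, with 15 of 17 above 0 and none past 2-fold. The planar polarity and calcium branches had a median of 0.42, with 20 of 23 above 0, led by Prickle2, Daam2 (1736 in double knockout and 883 in control) and Prickle1 (1044 in double knockout and 552 in control). Other Wnt antagonists went both ways, with 3 of 8 above 0. The bone antagonist gene Sost read 444 in double knockout and 242 in control glomeruli, while its relative Sostdc1 read 2557 in double knockout and 4354 in control and the decoy Frzb 254 in double knockout and 346 in control.

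Of 32 measured genes reported elsewhere as targets of β-catenin, 8 passed 2-fold on the higher side, against 3.53% of all measured genes. On the lower side 1 of the 32 did, against 2.87% of all, and the median log2 difference of the list was 0.70. This list was written with earlier results of these arrays known, and its largest members also mark injury, matrix and parietal cells, so it is no independent evidence of pathway activity. Cd44 read 1855 in double knockout and 337 in control glomeruli, Fn1 4428 in double knockout and 968 in control, Myc 307 in double knockout and 102 in control, Sox9 188 in double knockout and 71.8 in control, and Ccn2 19669 in double knockout and 8461 in control. Notum, a secreted enzyme that deacylates Wnt and is a feedback target in several tissues, went the other way, with 167 in double knockout and 394 in control glomeruli (2.36-fold lower). Lgr5, an R-spondin receptor and target, read 145 in double knockout and 79.0 in control (1.84-fold higher). Znrf3 and Sp5, feedback or general targets named after their values were seen, read 749 in double knockout and 642 in control for Znrf3 and 192 in double knockout and 246 in control for Sp5. Each of these 2 differed by less than 1.5-fold.

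**Figure D4:**
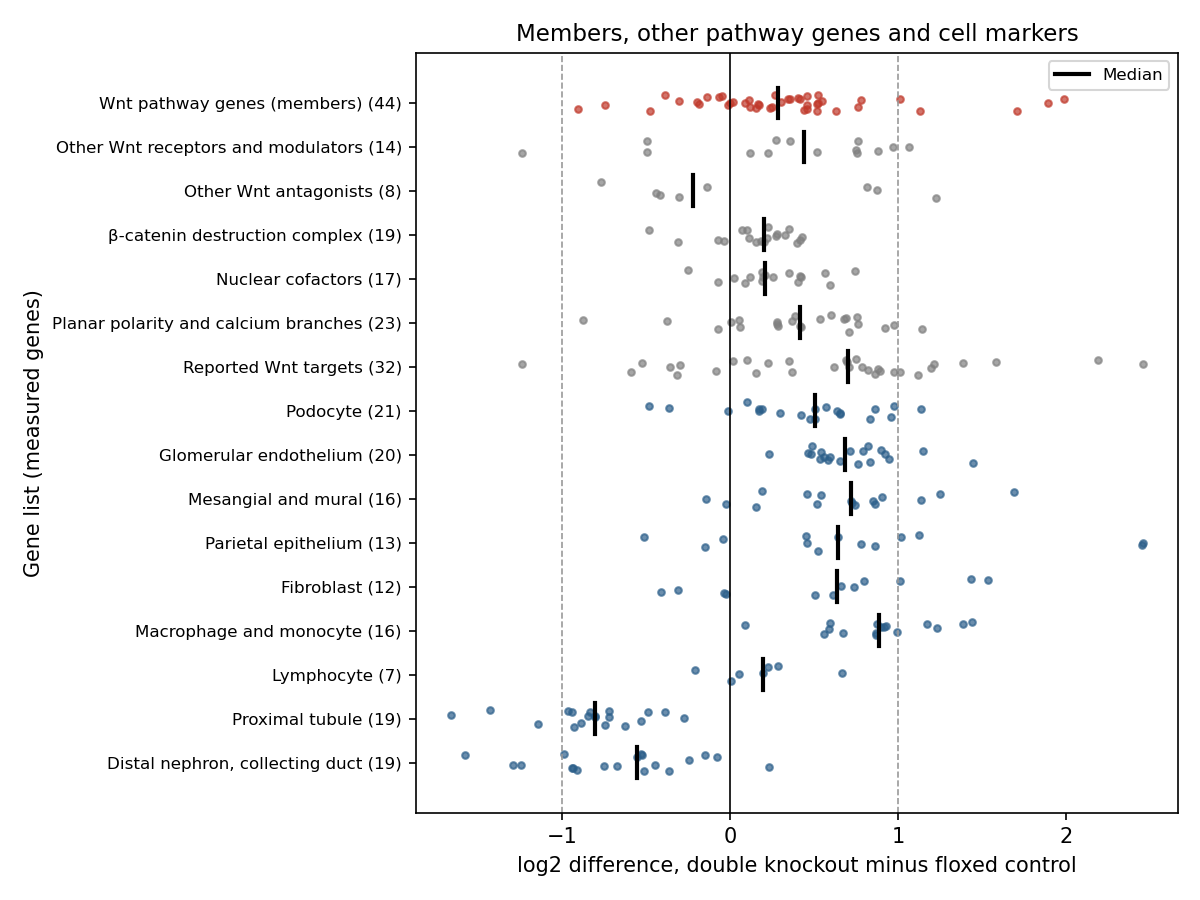
The log2 differences (double knockout minus floxed control) of the 44 Wnt pathway genes (red), other pathway lists (grey) and cell marker lists (blue), with black bars at the medians, dashed lines at 2-fold and the number of measured genes in brackets. The median of the Wnt pathway genes, 0.28, lies below those of the glomerular and macrophage marker lists and above those of the tubule lists.

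Cell type markers also differed between the arrays, not all in 1 direction. Parietal epithelial markers, which include Dkk3, were measured for 13 of 13 genes, with summed signals of 40524 in double knockout and 30545 in control glomeruli. Their median log2 difference was 0.64, with 10 above 0 and 3 below. Mesangial and mural markers were measured for 16 of 18 listed genes, with sums of 47763 in double knockout and 30652 in control. Their median was 0.72, with 14 above 0 and 2 below. Fibroblast markers were measured for 12 of 12, with sums of 15387 in double knockout and 10322 in control. Their median was 0.64, with 8 above 0 and 4 below. Macrophage markers were measured for 16 of 16, with sums of 15367 in double knockout and 8433 in control. Their median was 0.89, with all 16 above 0. Lymphocyte markers were measured for 7 of 14 listed genes, with sums of 780 in double knockout and 674 in control. Their median was 0.19, with 6 above 0 and 1 below, and Cd3e, Cd3d, Cd3g, Cd4 and Cd79a were below the floor on both arrays. Distal nephron and collecting duct markers were measured for 19 of 20 listed genes, with sums of 46666 in double knockout and 66253 in control. Their median was -0.55, with 1 above 0 and 18 below. No marker had a signal of 0. The part of these cell types in the differences of Wnt4, Rspo1, Nkd1, Axin2 and Sfrp2 was not tested.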

How the data were processed

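RNA of sieved glomeruli was hybridised to 1 array per genotype (1-colour 3′ expression arrays with biotinylated cRNA from 250 ng of RNA, per the labels' protocols). The authors deposited 1 linear intensity per probe set and array, and the submitters' processing notes name MAS5 without a version. The mean after trimming 2% of probe sets at each end was 500.0 on both arrays. The number of arrays limits the precision.

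Intensities were taken as deposited. Leaving out 64 control probe sets left 45037, of which 932 had several genes and 9160 none listed. Genes were named from GEO's platform annotation, and the identifiers of all 58 Wnt pathway genes matched the RefSeq table. Each gene was represented by its probe set of highest mean log2 signal, without _x_at sets where another existed. The floor was the mean of the arrays' 40th percentiles (52.65). Every measured Wnt pathway gene could be named, and from each other pathway list the 6 genes with the largest difference. The members, lists and tests were chosen with earlier results of these data known. Alternatives covered floors at the 25th and 60th percentiles, none, a pseudocount of 32, other scalings, other probe set choices and 1.5-fold and 3-fold rules. The steps were tested on simulated signals well above the floor, with changes larger than the 2-fold rule. Calls near 2-fold or near the floor were not checked in that way. Python 3.11.15, pandas 2.3.3, numpy 2.4.6 and statsmodels 0.14.6 were used.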

Additional observations from a re-analysis of the deposited data

How the results depend on the processing

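The count of Wnt pathway genes at least 2-fold higher was 5 and that of genes at least 2-fold lower was 0, with a median log2 difference of 0.28. With the floor at the 25th percentile 6 of 53 genes (11.3%) were higher and 2 (3.77%) lower, against 4.33% and 3.57% of all genes. The median was then 0.41. With no floor 8 of 58 (13.8%) were higher and 4 (6.90%) lower, against 9.10% and 8.20% of all genes, with a median of 0.41. Fewer genes were measured with the floor at the 60th percentile (29), and 3 (10.3%) were higher and 0 lower, against 2.64% and 2.93% of all genes. A pseudocount of 32 gave 3 higher (6.82%) and 1 lower (2.27%), against 2.84% and 2.6% of all genes. Recentring on glomerular markers, which subtracts 0.62 from every gene, gave 3 higher (6.82%) and 4 lower (9.09%), against 0.519% and 17.6% of all genes. The median of the Wnt pathway genes became -0.33, against -0.55 for all measured genes. The change of sign follows from the subtraction, which turns any median below 0.62. The probe set of median difference gave a median of 0.17, with 4 higher (8.89%) and 0 lower, against 2.6% and 3.18% of all genes. The 1.5-fold rule gave 8 higher (18.2%) and 2 lower (4.55%), against 13.7% and 10.02% of all measured genes, and the 3-fold rule 3 higher (6.82%), against 0.549%. Centring on the median or 75th percentile gave 4 higher (9.09%) and 0 lower, against 2.5% and 3.98% of all genes. The mean over probe sets gave 4 (8.89%) and 0, against 2.83% and 2.45%. Quantile normalization gave 5 (11.4%) and 0, against 2.68% and 3.28%. Removal of a loess trend gave 5 (11.4%) and 0, against 2.57% and 3.34%. Leaving out Fzd10os, chosen after seeing the data, gave 5 (11.6%) and 0, against 3.53% and 2.87%. Wnt4 and Rspo1 stayed at least 2-fold higher in each of 11 alternatives, Nkd1 and Sfrp2 in 8 and 7 of 11, and Axin2 in 8 of the 10 that measured it. Some of these settings could not change the value and are no check. A lower floor or none leaves a gene above the floor on both arrays as it was. Other probe set choices leave Rspo1, Sfrp2 and Axin2, with 1 measured probe set each, as they were. No gene past 2-fold changed sign. No paired analysis was possible because each genotype had 1 array. Signals near the floor, such as those of Wnt9a, Wnt2, Wnt7a, Rspo2 and Rspo3, cannot show the size of a difference.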
